A study of Canis lupus familiaris with 17 samples.

Results

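The transcriptomes of experiment 3 were compared with those of experiment 2 inside each of 3 populations of MDCK-II cells, a long-established epithelial line from dog kidney. The sample labels number the experiments, and the 6 libraries of each of these experiments were taken by that number, 12 of the 17 sequencing runs of the series. The cells carry a short hairpin RNA against scribble, a gene of the apical-basal polarity machinery, under the control of tetracycline (TET). Control cells were this scribKD line without TET, which keeps wild-type scribble expression. The scribKD cells were the same line with 10 µg/ml TET from the time of plating, and the scribRES cells were a population of the line that had outlived long culture in TET, also given 10 µg/ml TET. In both experiments and all 3 populations 1300000 cells were plated per dish and RNA was harvested 67 h later, so the labels give no difference in treatment between experiment 2 and experiment 3. Each population had 2 libraries in each experiment. The scribRES cells came from 1 selection. The study counts as many biological replicates of a population as there are experiments. The 2 libraries of a group are therefore read as repeats of 1 biological replicate, and the p-values measure the spread between such repeats, which may be technical.

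Kidney epithelial cells in culture make an extracellular matrix of collagens, proteoglycans and adhesion proteins, and many of its genes are induced by transforming growth factor beta (TGF-beta). Tubule cells are known by the pumps, channels, transporters, claudins and cadherins that carry out transport across the nephron wall. Immediate early genes, such as those of the Fos and Nr4a families, respond within minutes to serum or growth factors and return to their resting level soon after, while mitotic and DNA replication genes are expressed in dividing cells.

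The deposited values were RPKM, the reads on a transcript relative to its length and to the size of the library. Recovered totals ran from 12612666 to 16847275 reads on transcripts per library in experiment 2 and from 18884452 to 22012611 in experiment 3, so that experiment 3 was the more deeply sequenced. Of 21571 transcripts, 11529 were tested with limma on log2(RPKM + 0.1), and a shift had to pass an adjusted p of 0.05 and exceed 0.5 in absolute log2 fold change to be called. Fold changes below are on this scale, which understates those of low transcripts. The 2 libraries of a group differed by 1.74 (scribRES, experiment 2) to 5.95 (control, experiment 3) units of chi-square per transcript, where counting error alone gives about 1. Libraries of the same population and replicate number differed by 38.1 to 94.2 units between the experiments. The p-values set the shift against the spread inside an experiment, and 1 repeat of each experiment cannot give the spread between experiments. The names of the deposited tables carry different sequencing run identifiers for experiment 2 and experiment 3, and within experiment 3 a different lane for each replicate number. A cause in the cells and a cause in the library preparation or the run cannot be told apart.

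Scrib (XM_003431819.1), the targeted gene, was examined first. It stood at 34.6 and 30.8 RPKM in control cells of experiment 2 and at 30.1 and 26.01 RPKM in those of experiment 3. The scribKD cells had 16.2 and 16.2 RPKM at first and 12.1 and 12.01 in experiment 3, and the scribRES cells 12.4 and 12.2 and then 14.8 and 13.9. All 8 libraries of the TET-treated cells lay below all 4 control libraries, in accord with the labels in both experiments. The knock-down in scribKD over control cells had a log2 fold change of -1.01 (standard error 0.08, adjusted p = 7e-06) in experiment 2 and -1.21 (standard error 0.08, adjusted p = 2.3e-06) in experiment 3. Between the experiments Scrib was called in none of the populations, with log2 fold changes of -0.22 in control, -0.42 in scribKD and 0.22 in scribRES cells. All 3 were below the fold threshold in size, although the shifts differed between populations (moderated F test, adjusted p = 0.0035).

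Between the experiments 3793 transcripts shifted in control cells (32.9% of those tested, 1977 higher and 1816 lower in experiment 3), 2688 in scribKD cells (23.3%, 1387 higher and 1301 lower) and 1927 in scribRES cells (16.7%, 1137 higher and 790 lower). By direction, 17.1% of transcripts rose and 15.8% fell in control, 12% and 11.3% in scribKD, and 9.86% and 6.85% in scribRES cells. The median absolute log2 shift was 0.34, 0.27 and 0.23 in the same order. A set of 768 transcripts (6.66%) was called in all 3 populations in the same direction, 467 higher (4.05%) and 301 lower (2.61%), and 105 of these moved at least 2-fold in every population, 61 up and 44 down. Of the 5041 transcripts called anywhere, 1747 were called in 2 populations and 810 in 3, and only these could hold opposite calls. Opposite calls were found in 111 of them. Between control and scribKD cells 4 were opposite, between control and scribRES cells 78 and between scribKD and scribRES cells 71. Control and scribKD cells shifted most alike, with a Pearson correlation of 0.82 across the 11529 transcripts, against 0.51 for control and scribRES and 0.49 for scribKD and scribRES. These are descriptions across transcripts from libraries that share no sample but share the 2 experiments. Of the transcripts called higher, 1127 were common to control and scribKD cells, 57.0% of the control list and 81.3% of the scribKD list, whereas 699 were common to control and scribRES cells, 35.4% and 61.5% of the lists.

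**Figure D1:**
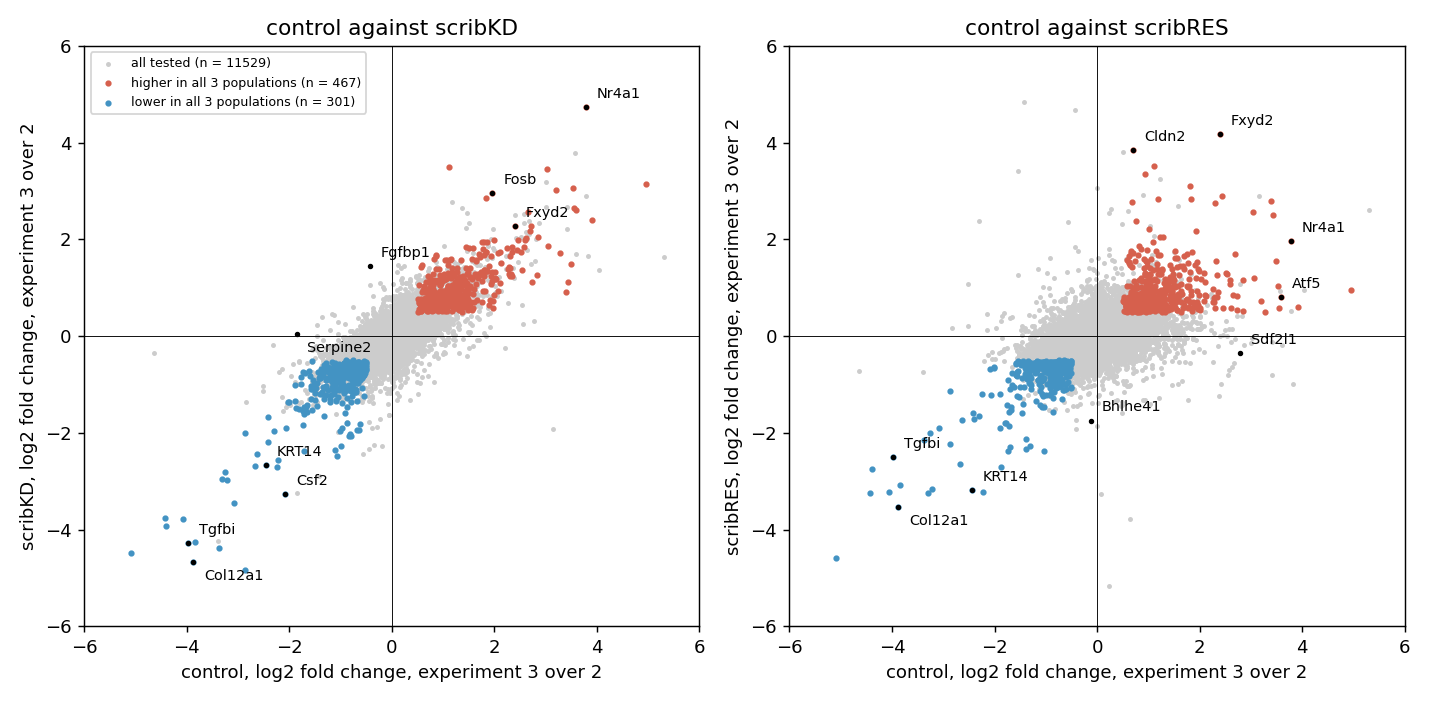
Log2 fold change of experiment 3 over experiment 2 in control cells (x axis) against that in scribKD (left) or scribRES cells (right, y axes), 1 point per transcript tested. The 467 transcripts higher and the 301 lower in all 3 populations are coloured. Control and scribKD shifts follow each other closely, and the scribRES shifts more loosely, with Cldn2 and Fxyd2 higher and Sdf2l1 near 0.

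Matrix genes were among the falls shared by the 3 populations. Of the 301 shared falls 51 had a gene name, 3.33% of the 1530 named transcripts tested, and 5 of these 51 were on the list of extracellular matrix genes. Both transcripts of Timp3 are on that list, so its counts are of transcripts and not of genes. Col12a1 (XM_539002.3), a collagen found along other collagen fibrils, had 20.4 and 25.2 RPKM in control cells of experiment 2 and 1.52 and 1.38 in experiment 3. In scribKD cells it had 80.7 and 69.6 and then 2.99 and 2.68 RPKM. In scribRES cells it had 92.4 and 100.3 and then 7.19 and 9.47 RPKM. All 6 libraries of experiment 2 lay above all 6 of experiment 3, whichever the population. The log2 fold changes were -3.88 (standard error 0.14, adjusted p = 1.7e-08) in control, -4.68 (standard error 0.14, adjusted p = 1.1e-08) in scribKD and -3.53 (standard error 0.14, adjusted p = 1.8e-07) in scribRES cells, and they differed between populations (F test, adjusted p = 0.0025). The order of the populations stayed the same, with control lowest and scribRES highest in both experiments.

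Tgfbi (XM_538640.3), a secreted adhesion protein induced by TGF-beta, behaved in the same way. It had 51.2 and 51.2 RPKM in control, 125 and 105 in scribKD and 118 and 125 in scribRES cells of experiment 2. In experiment 3 Tgfbi had 3.28 and 3.02, 6.41 and 5.27 and 18.1 and 25.6 RPKM, again with no overlap of the experiments. The fall was -3.98 in control and -4.27 in scribKD cells but -2.49 in scribRES cells on the log2 scale, a difference of 1.78 (standard error 0.21, adjusted p = 0.00015) between scribRES and scribKD cells. Vcan, the proteoglycan versican, fell by a log2 fold change of -1.11 in control, -2.36 in scribKD and -1.43 in scribRES cells. Among the 19 tested transcripts of a list of extracellular matrix genes, 9 in control, 9 in scribKD and 8 in scribRES cells fell and 1 in control, 2 in scribKD and 5 in scribRES cells rose, and 5 fell in all 3 populations. The list medians were -0.46, -0.33 and -0.30 in control, scribKD and scribRES cells, beside -0.01, -0.03 and 0.02 over all transcripts tested. Every list is drawn from the 1530 named transcripts tested. Of these, 25.6%, 18.8% and 20.8% rose and 16.9%, 12.8% and 9.41% fell in the same order, the shares to set beside the counts of each list. The medians of the named transcripts were 0.06 in control, 0.02 in scribKD and 0.07 in scribRES cells. Timp3, an inhibitor of matrix proteases with a pair of transcripts that share sequence, fell in every population, by a log2 fold change of -2.06 and -2.02 in scribKD cells. Among the rises was Podn, the leucine-rich proteoglycan podocan, which went from 1.43 and 1.12 to 10.9 and 9.70 RPKM in scribRES cells and had log2 fold changes of 0.90 in control, 0.36 in scribKD and 2.93 in scribRES cells, called in control and scribRES cells.

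TGF-beta targets and signalling genes fell or did not pass, and none of the 13 tested rose in any population. Called lower were 3 in control, 8 in scribKD and 5 in scribRES cells, with medians of -0.38, -0.67 and -0.21. Fst, the activin antagonist follistatin, fell in all 3 populations, from 81.9 and 80.02 to 19.6 and 24.1 RPKM in control, from 12.7 and 10.9 to 5.19 and 4.05 in scribKD and from 5.11 and 7.01 to 2.59 and 2.55 in scribRES cells. Inside a population the experiments did not overlap, while the control cells of experiment 3 remained above the scribKD and scribRES cells of experiment 2. Inhba, which encodes an activin subunit, had log2 fold changes of -0.47 in control, -1.25 in scribKD and -1.44 in scribRES cells, and Thbs1, thrombospondin, -0.46 in control, -1.34 in scribKD and -0.64 in scribRES cells. Both were called in scribKD and scribRES cells, and not in control cells. Tgfbi and Thbs1 also count in the matrix list.

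Outside these lists, KRT14 (NM_001253741.1), a keratin of basal epithelial cells, fell from 28.6 and 27.9 to 5.36 and 4.85 RPKM in control cells. The scribKD cells went from 39.02 and 28.6 to 5.44 and 4.88 RPKM and the scribRES cells from 49.5 and 53.6 to 4.96 and 6.30. The experiments did not overlap in any pair of populations, and in experiment 3 the populations reached nearly the same level. Keratin genes resemble each other closely, and how reads matching several transcripts were shared is not given in the sources used here. Ptgs2, the inducible cyclooxygenase that starts prostaglandin synthesis, had log2 fold changes of -2.87 in control, -2.0 in scribKD and -1.14 in scribRES cells, Lifr, the receptor of leukaemia inhibitory factor, -1.90 in control, -1.02 in scribKD and -1.90 in scribRES cells, and Flt1, a receptor of vascular endothelial growth factor, -1.66 in control, -1.56 in scribKD and -1.0 in scribRES cells. The widest mean fall of all transcripts tested belonged to XM_849460.1, which has no gene name in the tables used. It went from 19.8 and 15.7 RPKM to 0.492 and 0.361 in control cells, where 9 reads remained in the 2 libraries of experiment 3 together, and had log2 fold changes of -5.08 in control, -4.49 in scribKD and -4.60 in scribRES cells.

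**Figure D2:**
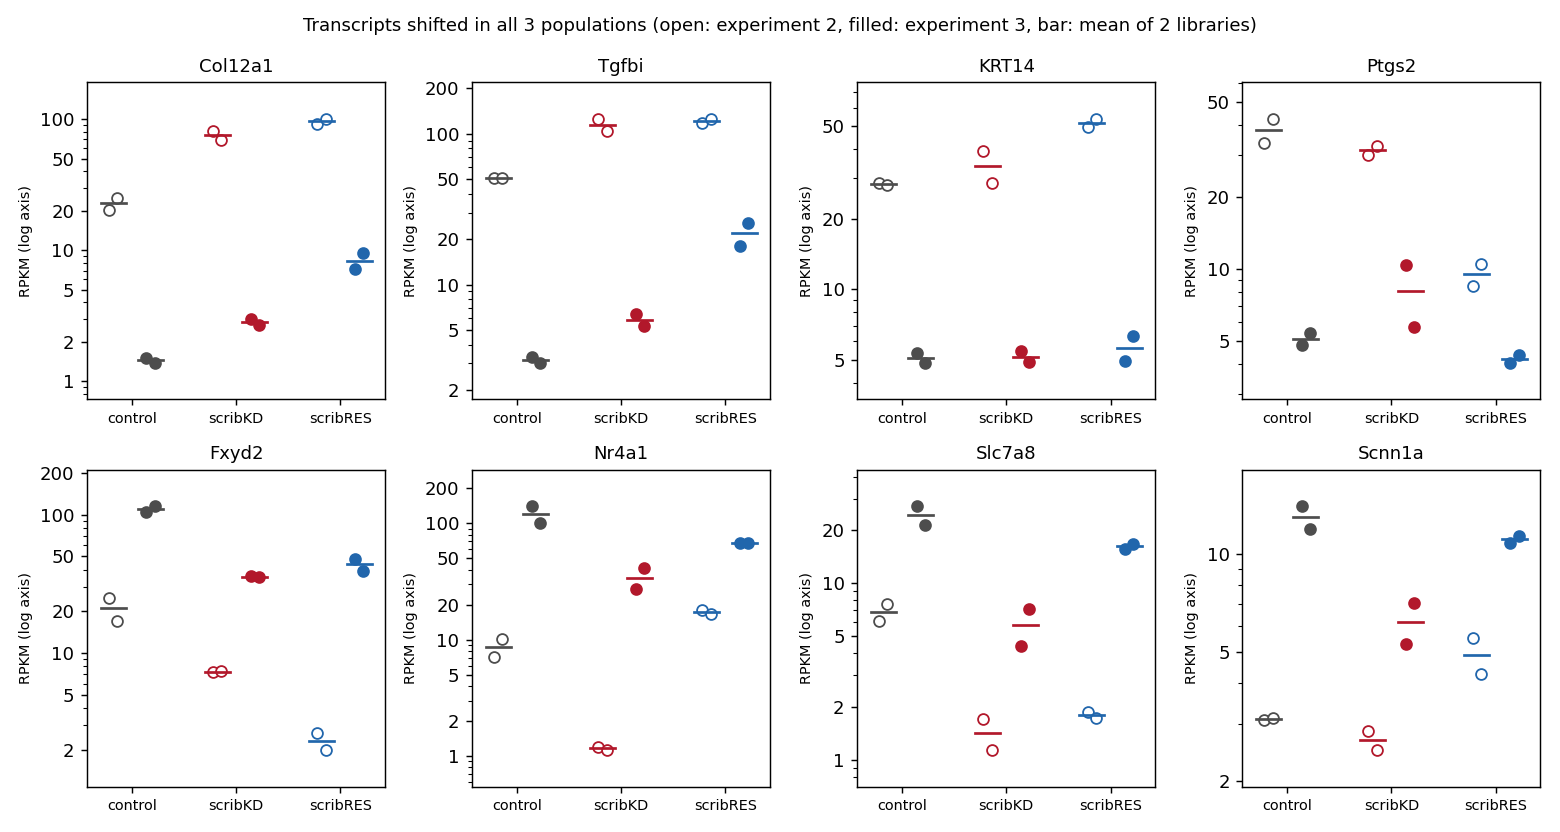
RPKM on a log axis of 8 transcripts called in all 3 populations, in each of the 12 libraries, with open points for experiment 2, filled points for experiment 3 and bars for the mean of 2 libraries. Col12a1, Tgfbi and KRT14 are lower and Fxyd2 and Nr4a1 higher in every library of experiment 3 than in every library of experiment 2, while Ptgs2, Slc7a8 and Scnn1a separate inside each population only.

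The shared rises held several genes of the kidney tubule. Of the 467 shared rises 147 had a gene name, 9.61% of the 1530 named transcripts tested. Fxyd2 (NM_001252337.1), the gamma subunit of the sodium pump, had 25.1 and 17.2 RPKM in control, 7.24 and 7.42 in scribKD and 2.65 and 1.98 in scribRES cells of experiment 2. In experiment 3 it had 104 and 115, 36.1 and 35.4 and 48.1 and 39.3 RPKM, so that the lowest library of experiment 3 lay above the highest of experiment 2. The log2 fold changes were 2.39 (standard error 0.17, adjusted p = 8.4e-07) in control, 2.27 (standard error 0.17, adjusted p = 2.6e-06) in scribKD and 4.19 (standard error 0.17, adjusted p = 1.8e-07) in scribRES cells. The scribRES rise exceeded the scribKD rise by 1.92 (standard error 0.24, adjusted p = 0.00026). In experiment 2 scribRES cells had the lowest Fxyd2 of the populations, and in experiment 3 both of their libraries lay above both scribKD libraries.

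Of the 10 tested transcripts on the list of kidney tubule epithelial markers, 6 in control, 5 in scribKD and 8 in scribRES cells rose and none fell, with medians of 0.93, 0.51 and 1.11. Among all named transcripts, which are the ones a list can draw on, 25.6%, 18.8% and 20.8% rose. Scnn1a, a subunit of the epithelial sodium channel, went from 3.08 and 3.12 to 14.03 and 11.9 RPKM in control, from 2.84 and 2.48 to 5.30 and 7.05 in scribKD and from 5.51 and 4.27 to 10.8 and 11.4 in scribRES cells. The experiments were apart in each population by these values. Scnn1a passed the filter through groups of experiment 3 only. Pck1, which makes phosphoenolpyruvate in gluconeogenesis of the proximal tubule, rose by a log2 fold change of 3.52 in control, 3.06 in scribKD and 1.04 in scribRES cells. Slc22a12, the urate transporter of the proximal tubule, had log2 fold changes of 1.29 in control, 0.58 in scribKD and 2.06 in scribRES cells, all called. Cdh16, the kidney-specific cadherin, was low throughout, and in scribRES cells it rose from 0.151 and 0.0286 RPKM (7 and 1 reads) to 1.98 and 1.28, with log2 fold changes of 1.23 in control, 0.36 in scribKD and 3.24 in scribRES cells, called in control and scribRES cells. Cdh16 passed the filter only through control cells of experiment 3, with 6.55 and 5.76 RPKM. It thus entered the test, and the counts of this list, as a transcript high in that experiment. The transcription factor gene Pax8 and the enzyme gene Ggt1 rose in scribRES cells, by log2 fold changes of 0.90 and 1.41, and were not called in control or scribKD cells, where Pax8 had 0.02 and -0.04. Of 9 defining kidney epithelial markers, 4 had a named transcript, and Pax8 and Krt19 lay between 22.5 and 1705 RPKM over the 12 libraries.

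Solute and ion transporters moved in both directions. Of 25 tested, 9 in control, 6 in scribKD and 10 in scribRES cells rose and 3 in control, 1 in scribKD and 3 in scribRES cells fell. The medians were 0.20, 0.04 and 0.19, beside 0.06, 0.02 and 0.07 over all named transcripts tested. Slc7a8, a carrier of neutral amino acids, had 6.10 and 7.59 RPKM in control cells of experiment 2 and 27.2 and 21.2 in experiment 3. In scribKD cells it went from 1.69 and 1.13 to 4.42 and 7.10 RPKM, and in scribRES cells from 1.86 and 1.73 to 15.7 and 16.6. Each population was separated by experiment, and the scribRES rise of 3.1 exceeded the control rise of 1.80 by 1.29 (standard error 0.33, adjusted p = 0.0096). Slc44a2, which carries choline, had log2 fold changes of 1.48 in control, 0.89 in scribKD and 0.65 in scribRES cells, and Slc39a4, which carries zinc, 1.27 in control, 0.67 in scribKD and 1.36 in scribRES cells. Slc7a6, another amino acid carrier, fell in all 3 populations, by log2 fold changes of -1.03 in control, -1.12 in scribKD and -0.74 in scribRES cells.

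Cell junction and polarity genes gave a mixed picture, with 5 in control, 1 in scribKD and 5 in scribRES cells rising and 3 in control, 2 in scribKD and 1 in scribRES cells falling of 14 tested, and medians of 0.05, 0.00 and 0.22. Cldn2, the claudin of leaky, cation-permeable tight junctions, was called in all 3 populations and stood out in scribRES cells. It had 185 and 173 RPKM in control, 41.7 and 40.05 in scribKD and 11.9 and 10.6 in scribRES cells of experiment 2. In experiment 3 it had 296 and 288, 65.3 and 84.6 and 165 and 159.9 RPKM. The scribRES cells thus went from the lowest to the middle place among the populations. Their log2 fold change of 3.84 (standard error 0.10, adjusted p = 6e-09) exceeded that of control cells, 0.71, by 3.13 (standard error 0.14, adjusted p = 2.4e-07). Tjp3, a tight junction scaffold, had log2 fold changes of 1.06 in control, 0.41 in scribKD and 0.78 in scribRES cells, and Dsc3, a desmosomal cadherin, -1.20 in control, -0.43 in scribKD and -0.93 in scribRES cells, both called in control and scribRES cells. Cldn1, the sealing claudin, fell in control and scribKD cells, by -0.56 and -1.30, and had -0.27 in scribRES cells.

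The remaining named genes with the widest shared rises were low to moderate in level. Stard10, a lipid transfer protein gene, had log2 fold changes of 3.49 in control, 1.48 in scribKD and 1.55 in scribRES cells, and Msln, which encodes the surface protein mesothelin, 1.69 in control, 1.70 in scribKD and 1.65 in scribRES cells. B4galnt2, a glycosyltransferase gene, had 1.83 in control, 2.86 in scribKD and 2.84 in scribRES cells, with 8 reads in the 2 libraries of experiment 2 together in scribKD and again in scribRES cells. B4galnt2 passed the filter only through control cells of experiment 3, with 6.80 and 6.93 RPKM, and so entered as high there. The tetraspanin gene Tspan1 had 1.86 in control, 1.94 in scribKD and 1.73 in scribRES cells, and 1700011H14Rik, whose role is not stated here, 1.56 in control, 1.59 in scribKD and 1.42 in scribRES cells. Msln, Tspan1, B4galnt2 and 1700011H14Rik gave no adjusted p under 0.05 in the F test for a difference between populations, with 0.99, 0.81, 0.29 and 0.31, which does not show that the shifts were equal.

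The immediate early genes held the largest mean rise of all transcripts tested, that of Nr4a1 (NM_001003227.1), an orphan nuclear receptor gene. It had 7.10 and 10.3 RPKM in control, 1.21 and 1.12 in scribKD and 17.9 and 16.6 in scribRES cells of experiment 2, and 140.3 and 100.1, 27.3 and 41.1 and 68.4 and 67.5 RPKM in experiment 3. The experiments did not overlap across populations. The log2 fold changes were 3.78 (standard error 0.21, adjusted p = 1.8e-07) in control, 4.73 (standard error 0.21, adjusted p = 9.9e-08) in scribKD and 1.97 (standard error 0.21, adjusted p = 4.9e-05) in scribRES cells, and scribRES differed from scribKD cells by -2.76 (standard error 0.30, adjusted p = 9.1e-05).

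On the list of immediate early and serum response genes, 10 in control, 8 in scribKD and 10 in scribRES cells of 16 tested rose, 2 in control, 1 in scribKD and 0 in scribRES cells fell, and 6 rose in all 3 populations. Among all named transcripts tested, 9.61% rose in all 3 populations. The medians of the list were 0.91, 0.56 and 0.71. Fosb went from 21.1 and 25.6 to 103 and 79.6 RPKM in control, from 9.23 and 2.92 to 35.5 and 48.3 in scribKD and from 37.1 and 30.1 to 88.6 and 86.2 in scribRES cells. Inside each population its libraries were separated by experiment, with the 2 scribKD libraries of experiment 2 far apart. Fos itself had log2 fold changes of 0.87 in control, 1.68 in scribKD and 0.88 in scribRES cells. Dusp5, a phosphatase that switches off the kinase ERK, had 1.17 in control, 1.32 in scribKD and 1.49 in scribRES cells, and Btg2, an antiproliferative gene that is also a p53 target, 1.75 in control, 0.70 in scribKD and 1.69 in scribRES cells. Dusp1 and Errfi1, feedback inhibitors of kinase signalling, rose in control and scribKD cells, by 1.33 and 1.29 for Dusp1, and Dusp1 had -0.04 in scribRES cells. Junb, Jund and Srf were called in scribRES cells alone, with log2 fold changes of 0.95, 0.55 and 0.54. Such a call does not by itself show a difference from the other populations. MYC and Fosl1 fell, MYC in control cells and Fosl1 in control and scribKD cells.

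Of 25 transcripts of mitotic genes tested none rose in any population, and 10 in control, 19 in scribKD and 13 in scribRES cells fell, with medians of -0.27, -0.61 and -0.52. Among all named transcripts tested, 16.9%, 12.8% and 9.41% fell in control, scribKD and scribRES cells. Of the mitotic transcripts, 7 fell in all 3 populations, beside 3.33% of all named transcripts tested. Mki67, the Ki-67 proliferation marker gene, went from 42.8 and 49.9 to 27.6 and 23.1 RPKM in control, from 26.2 and 26.02 to 11.005 and 13.3 in scribKD and from 29.1 and 32.2 to 17.1 and 18.98 in scribRES cells. The experiments were separated inside each population. Gtse1, a microtubule-binding protein gene of dividing cells, had log2 fold changes of -0.78 in control, -0.80 in scribKD and -0.72 in scribRES cells. Aspm, a spindle pole protein gene, had -0.89 in control, -0.79 in scribKD and -0.97 in scribRES cells in its first transcript (AY485421.1). Neither of these showed a difference between populations by the F test (adjusted p = 0.82 and 0.71). The second Aspm transcript on the list (NM_001197076.1) had -0.27 in control, -0.51 in scribKD and -0.75 in scribRES cells. It was not called in control cells, and its scribRES shift differed from the control shift by -0.47 (standard error 0.15, adjusted p = 0.027). CDC25A, the phosphatase that opens entry into S phase, had -1.77 in control, -1.36 in scribKD and -0.25 in scribRES cells, called in control and scribKD cells, and its scribRES shift differed from that of control cells by 1.52 (standard error 0.16, adjusted p = 4.2e-05).

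Of 10 DNA replication genes tested, 5 in control, 6 in scribKD and 1 in scribRES cells fell and 1 rose, in scribRES cells, and the medians were -0.50, -0.72 and 0.06. Mcm2, part of the replicative helicase, had 69.03 and 64.2 RPKM in control, 45.96 and 43.2 in scribKD and 26.7 and 28.8 in scribRES cells of experiment 2. In experiment 3 it had 35.7 and 38.4, 24.2 and 24.6 and 30.7 and 32.2 RPKM. Control and scribKD libraries fell and the scribRES libraries lay slightly above those of experiment 2, with a log2 fold change of 0.18 that was not called. The difference between scribRES and scribKD cells was 1.05 (standard error 0.09, adjusted p = 3.2e-05). Mcm5 had -0.76 in control, -0.92 in scribKD and 0.09 in scribRES cells, and Rfc5, a subunit of the clamp loader, -0.92 in control, -1.05 in scribKD and -0.12 in scribRES cells. Rrm2, the ribonucleotide reductase subunit, fell in control and scribKD cells and rose in scribRES cells, with log2 fold changes of -0.69 in control, -0.76 in scribKD and 0.77 in scribRES cells. E2f7, a repressor of the E2F family, was the gene of the list that fell in all 3 populations, by -0.72 in control, -1.09 in scribKD and -0.88 in scribRES cells.

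On the list of unfolded protein and amino acid response genes, 4 in control, 4 in scribKD and 1 in scribRES cells of 5 tested rose, 1 in control, 1 in scribKD and 1 in scribRES cells fell, and the medians were 1.33, 1.49 and -0.34. Sdf2l1, which encodes a protein of the endoplasmic reticulum, had 62.8 and 50.3 RPKM in control, 69.96 and 71.1 in scribKD and 241 and 226 in scribRES cells of experiment 2. In experiment 3 it had 381 and 396, 195 and 221 and 178 and 191 RPKM. The scribRES cells held the highest level in experiment 2 and the lowest in experiment 3. The control rise of 2.79 and the scribRES shift of -0.34 differed by -3.13 (standard error 0.14, adjusted p = 1.7e-07). HSP90B1, the chaperone of the endoplasmic reticulum, rose by 1.26 and 1.49 in control and scribKD cells and fell by 0.78 on the log2 scale in scribRES cells. Atf5, a stress-induced transcription factor gene, was called in all 3, at 3.58 in control, 2.60 in scribKD and 0.80 in scribRES cells, from 4.30 and 5.36 RPKM in control and 26.6 and 24.9 in scribRES cells of experiment 2. Psph, of serine synthesis, had 1.33 in control, 1.0 in scribKD and -0.26 in scribRES cells. Aldh1l2, of mitochondrial folate metabolism, went the other way, with -1.46 in control, -0.85 in scribKD and -0.38 in scribRES cells.

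Glycolysis and hypoxia response genes were called in control and scribKD cells, with 5 in control, 4 in scribKD and 0 in scribRES cells rising of 7 tested, 1 fall in control cells, and medians of 0.63, 0.90 and 0.17. VEGFA, the endothelial growth factor, had 19.1 and 18.8 RPKM in control and 21.3 and 18.9 in scribKD cells of experiment 2, and 75.5 and 71.95 and 57.3 and 66.6 in experiment 3. The scribRES cells held 70.9 and 71.9 RPKM and then 91.5 and 80.95. The level of control and scribKD cells in experiment 3 was near that of scribRES cells in experiment 2, and the control and scribRES shifts differed by -1.68 (standard error 0.12, adjusted p = 4.5e-06). Adm, the peptide hormone adrenomedullin, is listed under a pair of overlapping transcripts with nearly the same values, and the first (AF045773.1) had 2.03 in control, 0.91 in scribKD and 0.17 in scribRES cells and the second (U96127.1) 2.01 in control, 0.90 in scribKD and 0.15 in scribRES cells. Both Adm transcripts count among the 7. The list median in scribKD cells is the value of the second, and that in scribRES cells the value of the first. SLC2A1, the basal glucose transporter, had 0.63 in control, 0.98 in scribKD and -0.31 in scribRES cells. Of 4 heat shock and chaperone genes tested, 1 in control, 0 in scribKD and 1 in scribRES cells rose and 3 in control, 2 in scribKD and 1 in scribRES cells fell, with medians of -0.66, -0.57 and -0.19. Fkbp4, a co-chaperone of HSP90, had -1.39 in control, -0.71 in scribKD and -0.34 in scribRES cells, Hsp90ab1, of the HSP90 family, -0.54 in control, -1.24 in scribKD and -0.53 in scribRES cells, and Hspa4, of the HSP70 family, -0.78 in control, -0.43 in scribKD and -0.05 in scribRES cells. Hspb1, the small heat shock protein HSP27, had 1.21 in control, -0.19 in scribKD and 0.56 in scribRES cells and its control and scribKD shifts differed by -1.41 (standard error 0.12, adjusted p = 0.00021).

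Inflammatory genes of the NF-kB list were split, with 3 in control, 3 in scribKD and 1 in scribRES cells rising and 2 in control, 3 in scribKD and 2 in scribRES cells falling of 7 tested, and medians of 0.35, -0.27 and -0.23. Csf2, the cytokine GM-CSF, fell from 76.3 and 54.5 to 14.4 and 15.99 RPKM in control, from 99.4 and 97.3 to 10.3 and 9.99 in scribKD and from 40.01 and 37.4 to 24.5 and 23.5 in scribRES cells. Its libraries separated by experiment over all populations, and the scribKD fall of -3.26 exceeded the scribRES fall of -0.69, the difference being 2.58 (standard error 0.17, adjusted p = 5e-06). Nfkbia, the inhibitor that NF-kB itself induces, rose by 1.26 in control, 0.76 in scribKD and 0.89 in scribRES cells. CCL2, a monocyte chemokine, rose in control cells from 1.99 and 1.83 to 13.1 and 15.04 RPKM, a log2 fold change of 2.82 that was no longer called with a pseudocount of 0.01. Its call in scribKD cells rests on 7 reads in experiment 2 and 29 in experiment 3. CCL2 passed the filter only through control cells of experiment 3.

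Of 7 NRF2 and oxidative stress genes, 1 in control, 3 in scribKD and 2 in scribRES cells rose and 1 fell, in control cells, with medians of 0.21, 0.78 and 0.24. The drug transporter gene Abcc3 rose in all 3, by 0.89 in control, 0.78 in scribKD and 0.85 in scribRES cells, ABCC2 had 0.61 in control, 0.98 in scribKD and 2.58 in scribRES cells and was called in scribRES cells, where experiment 2 held 11 reads in its 2 libraries together, and TXNRD1, thioredoxin reductase, had -0.63 in control, -0.24 in scribKD and -0.40 in scribRES cells, called in control cells. ABCC2 passed the filter only through control and scribKD cells of experiment 3. Of 19 p53 targets, 5 in control, 3 in scribKD and 2 in scribRES cells rose and 4 in control, 5 in scribKD and 4 in scribRES cells fell, with medians of -0.29, -0.09 and -0.03. Among all named transcripts tested, 25.6%, 18.8% and 20.8% rose and 16.9%, 12.8% and 9.41% fell in the same order. Sfn, the checkpoint protein 14-3-3 sigma, had -1.61 in control, -1.30 in scribKD and -0.17 in scribRES cells, Plk3, a stress-responsive kinase, 1.35 in control, 1.58 in scribKD and 0.64 in scribRES cells, and Cdkn1a, the cell cycle inhibitor p21, 0.11 in control, -0.52 in scribKD and -0.24 in scribRES cells, with its fall called in scribKD cells. Of 5 cholesterol and fatty acid genes, 2 in control, 2 in scribKD and 0 in scribRES cells rose and none fell, SREBF1 by 0.80 and 0.72 and Fads2 by 0.99 and 0.53 in control and scribKD cells, with list medians of 0.38, 0.22 and 0.41. Of 3 YAP and TEAD targets, 2 in control, 1 in scribKD and 0 in scribRES cells rose and none fell, with medians of 0.64, 0.09 and 0.13. In that list Gadd45b, a stress-induced gene also among the p53 targets, had 1.09 in control, 0.09 in scribKD and 0.29 in scribRES cells, Wwc1, a scaffold of the Hippo pathway, 0.64 in control, 0.02 in scribKD and 0.13 in scribRES cells and Myof, which encodes myoferlin, 0.06 in control, 0.55 in scribKD and -0.16 in scribRES cells, and the scribKD call of Myof was lost without replicate 1 of scribKD cells in experiment 3. Of 3 interferon response genes, 2 in control, 0 in scribKD and 1 in scribRES cells rose and none fell, with medians of 0.66, 0.01 and 0.27, the rises being those of the proteasome subunit genes Psmb8 and Psmb9, by 0.77 and 0.66 in control cells. None of 5 ribosomal protein transcripts was called, and their medians were 0.40, 0.35 and 0.37.

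Markers of other cell types were looked for. Of 10 defining fibroblast markers, 1 had a named transcript, Dcn, which lay between 0 and 0.0560 RPKM, and of 11 blood and endothelial markers, 1 had one, Vwf, between 0 and 0.178 RPKM. On the wider fibroblast list, 2 transcripts were tested. S100a4, a calcium-binding protein gene of motile cells, rose by 0.85 in control, 1.38 in scribKD and 1.81 in scribRES cells, and Vim, the intermediate filament vimentin, was not called, with 0.07 in control, -0.07 in scribKD and -0.37 in scribRES cells. The list medians were 0.46, 0.66 and 0.72. No transcript of the wider list of blood and endothelial markers was tested. The defining markers of other cell types were near 0 where they were named.

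**Figure D3:**
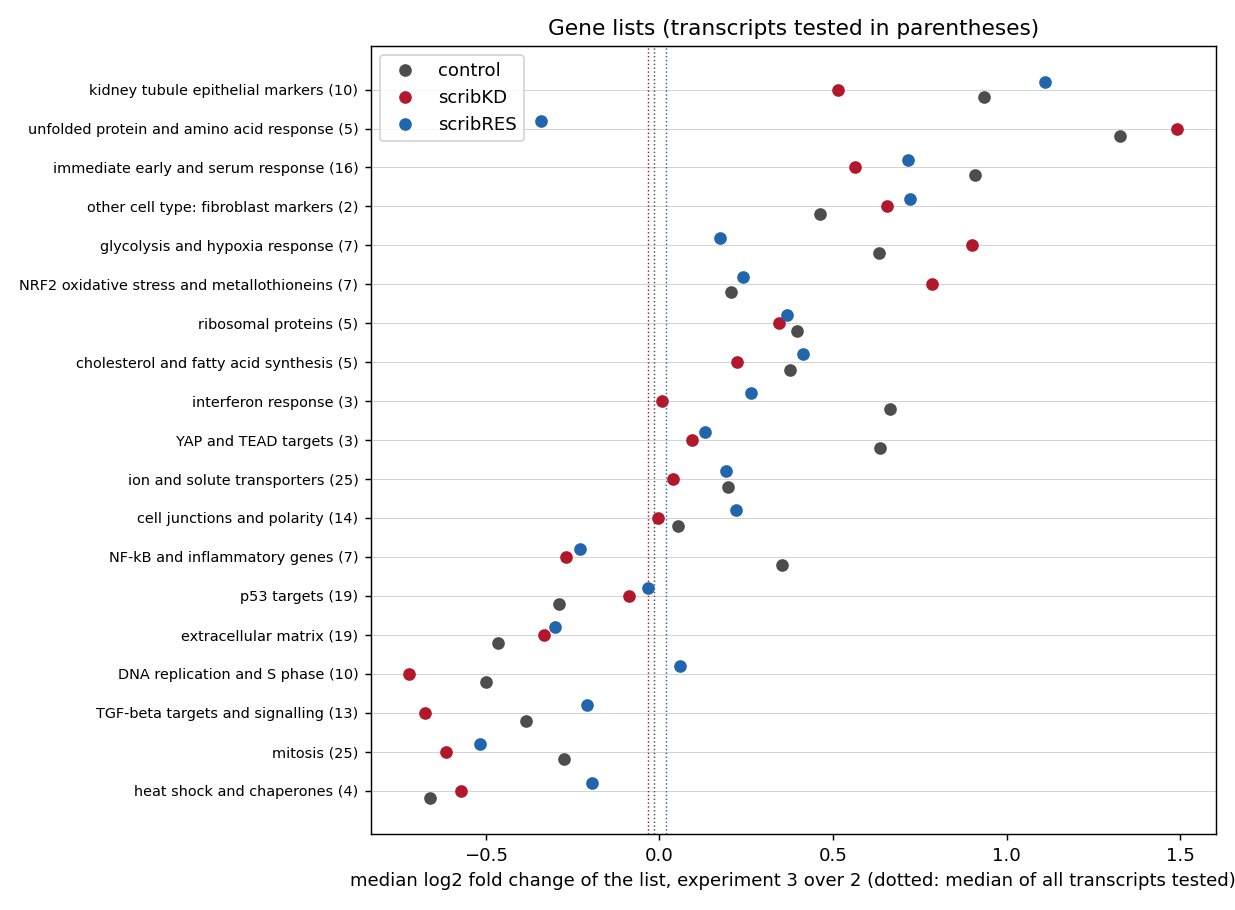
Median log2 fold change of experiment 3 over experiment 2 for each gene list with 2 or more transcripts tested, 1 point per population, with the number tested in parentheses and dotted lines at the medians of all transcripts tested. The medians of the named transcripts, from which lists are drawn, were 0.06 in control, 0.02 in scribKD and 0.07 in scribRES cells. Kidney tubule markers and immediate early genes lie to the right in all 3 populations and mitotic genes to the left, while the scribRES points of the unfolded protein and DNA replication lists lie apart from the other two.

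A shift was assigned to a single population when it was called there, called in neither of the others, and differed from both by a test of the difference. In control cells 539 transcripts met this (4.68% of those tested, 219 higher or 1.90% and 320 lower or 2.78%), in scribKD cells 146 (1.27%, 47 higher or 0.408% and 99 lower or 0.859%) and in scribRES cells 269 (2.33%, 155 higher or 1.34% and 114 lower or 0.989%). Far more were called in 1 population without that test, 1387, 507 and 590 in the same order. By the F test 5646 transcripts (49%) had shifts that differed between populations, whatever their size. The control count fell to 289 and the scribKD count to 84 without replicate 1 of scribKD cells in experiment 3, and the control count to 358 without replicate 1 of scribKD cells in experiment 2.

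Serpine2 (XM_859070.2), a secreted inhibitor of thrombin and plasminogen activators, fell in control cells only. It had 56.4 and 54.4 RPKM in control cells of experiment 2 and 14.02 and 16.5 in experiment 3. The scribKD cells had 24.2 and 24.6 and then 27.97 and 22.6 RPKM, and the scribRES cells 10.7 and 13.02 and then 10.4 and 12.6. The experiments overlapped in scribKD and in scribRES cells and were far apart in control cells. The control shift was -1.86 (standard error 0.13, adjusted p = 8.2e-07), and that of scribKD cells differed from it by 1.90 (standard error 0.19, adjusted p = 0.00036). MYC (NM_001003246.2), the growth-promoting transcription factor gene, had 167 and 168 RPKM in control cells of experiment 2 and 66.98 and 59.9 in experiment 3, against 102 and 91.5 and 70.5 and 75.3 in scribKD and 73.5 and 76.2 and 80.8 and 79.99 in scribRES cells. Control cells had the highest MYC of the populations in experiment 2 and the lowest in experiment 3, with log2 fold changes of -1.40 in control, -0.40 in scribKD and 0.10 in scribRES cells. Mrm1, a methyltransferase gene of mitochondrial ribosomal RNA, was likewise among the 3 largest of the 64 named falls in control cells only, with -1.51 in control, -0.45 in scribKD and -0.40 in scribRES cells. Among the rises, Tmem125, a membrane protein gene, had 1.66 in control, 0.40 in scribKD and 0.13 in scribRES cells, Trim16, a tripartite motif protein gene, 1.52 in control, 0.09 in scribKD and -0.25 in scribRES cells, and CCS, the copper chaperone of superoxide dismutase, 1.43 in control, 0.31 in scribKD and 0.46 in scribRES cells.

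In scribKD cells only, LGALS3 (NM_001197043.1), the lectin galectin-3, rose from 1539.7 and 1372 to 3437 and 3307 RPKM. It had 2486 and 2546 and then 3387 and 3552 RPKM in control cells, and 3077 and 3037 and then 3236 and 3312 in scribRES cells. The low scribKD level of experiment 2 thus set the 2 scribKD libraries apart from the 10 other libraries, and in experiment 3 the 3 populations lay close together. Its scribKD shift of 1.21 (standard error 0.06, adjusted p = 2.6e-07) exceeded that of scribRES cells by a difference of -1.12 (standard error 0.09, adjusted p = 1.5e-05), and the control shift of 0.46 was short of the fold threshold. Il13ra2, a receptor of interleukin 13, had log2 fold changes of 0.11 in control, 1.47 in scribKD and 0.06 in scribRES cells, and Fgfbp1, which carries fibroblast growth factors, -0.42 in control, 1.45 in scribKD and 0.11 in scribRES cells. Among the falls were those of Fam110b, a centrosomal protein gene, with -0.37 in control, -1.38 in scribKD and -0.25 in scribRES cells, and of Angptl4, an inhibitor of lipoprotein lipase, with -0.43 in control, -1.01 in scribKD and -0.26 in scribRES cells. Fam110b stood at 39.8 and 39.5 RPKM in scribKD cells of experiment 2 and at 15.2 and 15.2 in experiment 3. From the stress lists, Hmox1, haem oxygenase, and Nqo1, a quinone reductase, were called in scribKD cells alone, with 1.11 and 1.13, and Hmox1 had 0.21 in control and 0.19 in scribRES cells. Such a call does not by itself show a difference from the other populations.

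In scribRES cells only, Bhlhe41 (AY204568.1), a repressor of the circadian clock, fell from 61.2 and 56.2 to 19.2 and 15.7 RPKM. It had 6.32 and 7.54 and then 6.62 and 6.02 RPKM in control cells and 14.8 and 14.2 and then 20.1 and 14.8 in scribKD cells. Within experiments 2 and 3, the 2 scribRES libraries of experiment 2 were above all others. The scribRES libraries of experiment 3 lay among the scribKD values. Experiment 1, which had no scribRES libraries, held 34.8 and 48.7 RPKM in control and 72.3 and 59.5 in scribKD cells. A level as high was thus also seen in scribKD cells. The scribRES shift between experiments 2 and 3 was -1.75 (standard error 0.15, adjusted p = 1.1e-05). It differed from that of scribKD cells by -2.0 (standard error 0.21, adjusted p = 6.7e-05). Dsg3, a desmosomal cadherin of stratified epithelia, had -0.39 in control, -0.15 in scribKD and -1.45 in scribRES cells. Krt16, a keratin of activated epidermis, had -0.34 in control, 0.16 in scribKD and -1.41 in scribRES cells. In experiment 2 scribRES cells had 61.9 and 65.4 RPKM of Dsg3 and 26.4 and 24.3 of Krt16. In experiment 1 Dsg3 had 77.9 and 82.0 RPKM in control and 101 and 110 in scribKD cells. Krt16 had 31.4 and 27.9 RPKM in control and 81.6 and 79.4 in scribKD cells of experiment 1. Both genes were thus higher there than in scribRES cells of experiment 2. Dcdc2a (XM_848422.2), a protein gene of the primary cilium, rose from 15.3 and 15.6 to 43.1 and 39.8 RPKM, while it had 78.7 and 83.5 and then 72.3 and 73.5 RPKM in control cells. Its scribRES libraries moved from below all the others into the range of the scribKD libraries of both experiments, with log2 fold changes of -0.15 in control, -0.21 in scribKD and 1.42 in scribRES cells. Cldn16, the claudin of magnesium reabsorption, had 0.844 and 0.343 RPKM (13 and 4 reads) and then 2.92 and 3.50 in scribRES cells, and log2 fold changes of -0.57 in control, -0.59 in scribKD and 2.35 in scribRES cells. IGF2, the foetal growth factor, was also called, but its scribRES libraries held 0 and 0 reads in experiment 2 and 1 and 2 in experiment 3. Both groups are at or under 3 reads a library, and no fold is given.

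**Figure D4:**
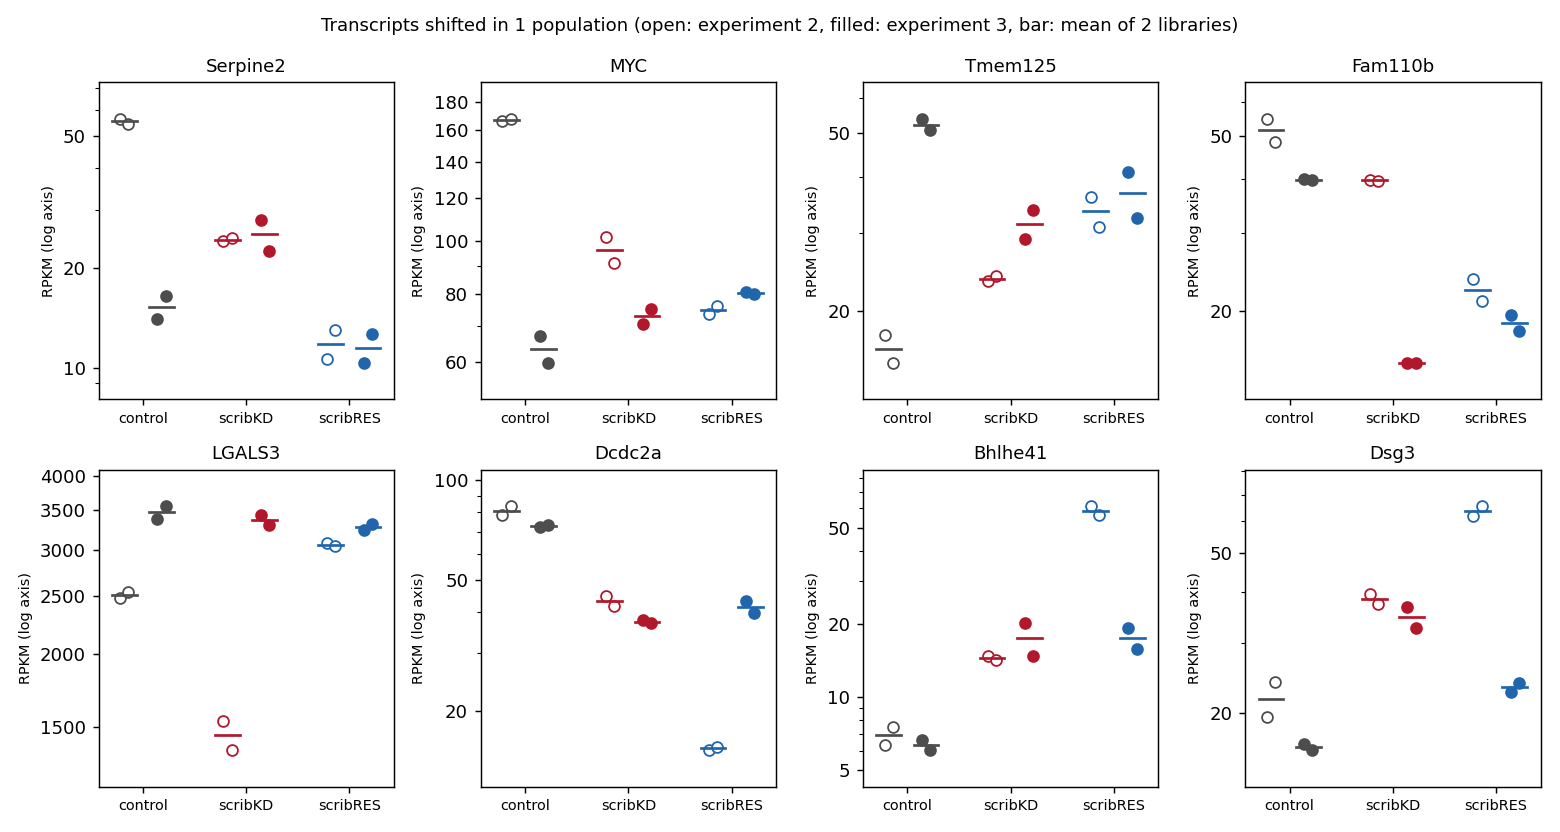
RPKM on a log axis in the 12 libraries for 8 transcripts whose shift was assigned to 1 population, with open points for experiment 2, filled points for experiment 3 and bars for the mean of 2 libraries. Serpine2, MYC and Tmem125 moved in control cells, Fam110b and LGALS3 in scribKD cells, and Dcdc2a, Bhlhe41 and Dsg3 in scribRES cells, while the other populations moved by less than the threshold.

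The experiments also differed in how far the populations lay from each other. In experiment 2 the limma fit called 1947 transcripts (16.9%) between scribKD and control cells, and in experiment 3 1986 (17.2%). Between scribRES and scribKD cells it called 2600 (22.6%) in experiment 2 and 650 (5.64%) in experiment 3. The median absolute log2 difference between scribRES and scribKD cells was 0.28 in experiment 2 and 0.14 in experiment 3, that between scribRES and control cells 0.33 and 0.18, and that between scribKD and control cells 0.22 and 0.23. These contrasts use the same libraries as the shifts and are no independent evidence of them.

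Transcript length moved with the shift. The Spearman correlation of the log2 fold change with the length implied by the RPKM values was -0.14 in control, -0.06 in scribKD and -0.20 in scribRES cells across 11526 transcripts. Of 956 transcripts over 4000 bases, 0.732% were higher and 4.60% lower in all 3 populations, and of 3413 transcripts of up to 1000 bases, 5.04% were higher and 2.87% lower. The median length was 1209 bases among the 467 shared rises, 1745 among the 301 shared falls and 1548 among all transcripts tested. The median log2 fold change of transcripts over 4000 bases was -0.20 in control, -0.15 in scribKD and -0.18 in scribRES cells. The part of length in the shared shifts was not tested.

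Experiment 1 held control and scribKD libraries that the comparison did not use, which were set beside the shared shifts as a description. In control cells 665 of the 768 shared transcripts (86.6%) lay nearer to experiment 2 than to experiment 3 in experiment 1, and in scribKD cells 567 (73.8%). On a scale from 0 at experiment 2 to 1 at experiment 3 the median position of experiment 1 was 0.19 in control and 0.22 in scribKD cells. For Col12a1 experiment 1 had 44.1 and 45.2 RPKM in control and 83.5 and 101 in scribKD cells. For KRT14 it had 99.1 and 72.9 and 106 and 92.2, and for Fxyd2 5.89 and 5.15 and 1.53 and 0.914. In these genes experiment 1 stood at the level of experiment 2 or on its far side. Nr4a1 differed, with 16.6 and 43.1 RPKM in control and 37.4 and 19.9 in scribKD cells of experiment 1, between the experiments in control cells and near experiment 3 in scribKD cells. Of the 539 transcripts that shifted in control cells only, 312 (57.9%) lay nearer to experiment 2 in control cells of experiment 1, and of the 146 that shifted in scribKD cells only, 59 (40.4%) did so in scribKD cells. The 2 libraries of a group in experiment 1 differed by 29.6 units of chi-square per transcript in control and 26.2 in scribKD cells, more than in experiments 2 and 3. This measure grows with depth, and experiment 1 had more reads, 24817606 to 54644214 per library. The median absolute log2 difference between the 2 libraries was 0.13 in control and 0.13 in scribKD cells of experiment 1. In experiments 2 and 3 it was 0.12 and 0.09 in control and 0.08 and 0.08 in scribKD cells.

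**Figure D5:**
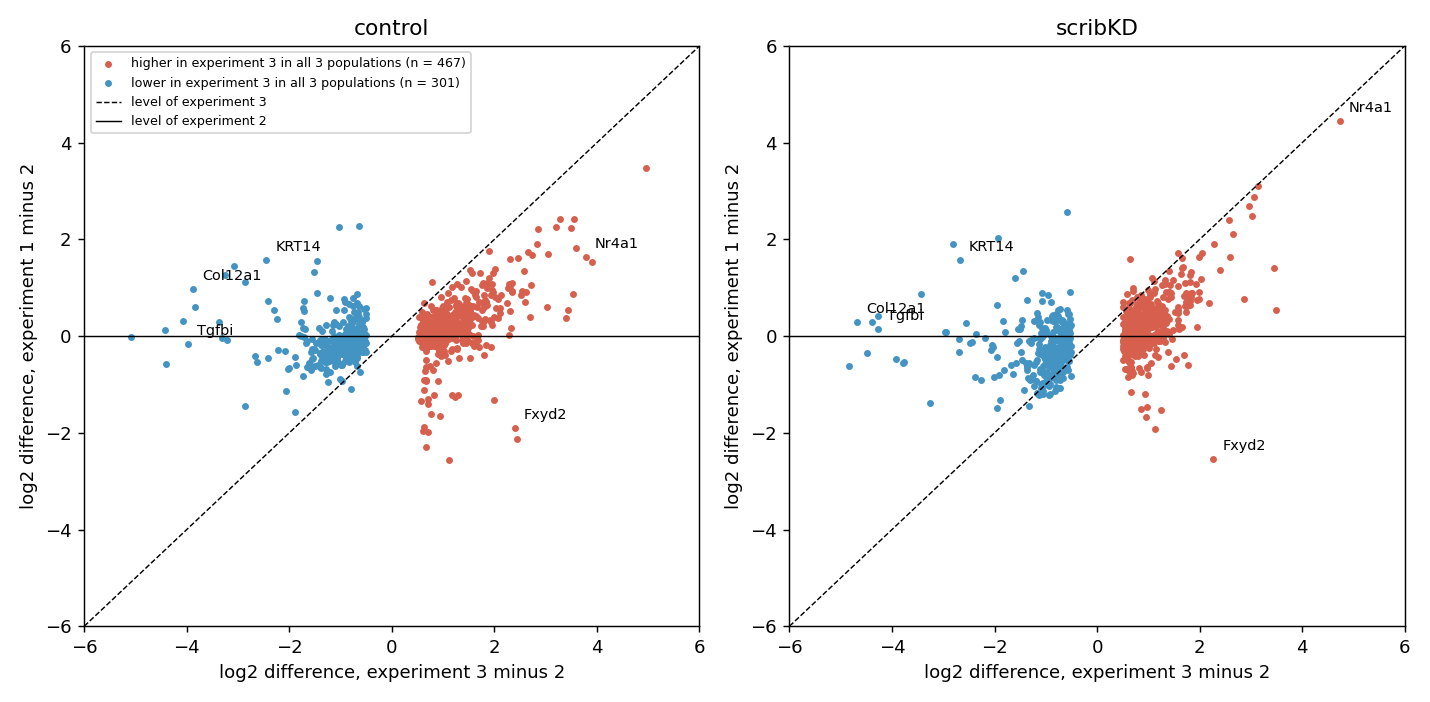
Log2 difference of experiment 1 from experiment 2 (y axis) against that of experiment 3 from experiment 2 (x axis) for the 768 transcripts called in all 3 populations, in control (left) and scribKD cells (right). The solid line at 0 is the level of experiment 2 and the dashed diagonal that of experiment 3, and most points lie nearer to the solid line, with Col12a1, KRT14 and Fxyd2 on it or beyond it.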

How the data were processed

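Libraries were prepared with a kit that does not keep strand, so antisense and overlapping genes cannot be told apart, and were read from one end at 36 or 40 bases. The authors trimmed the reads (cutadapt 1.0 is named in the submitters' processing notes), mapped them with TopHat2 2.0.6 to the dog genome 3.1 and deposited RPKM per transcript, 1 table of 21571 transcripts per run. From the steps of these RPKM values whole reads were recovered for 18870 transcripts, 2698 were at 0 in every run and 3 were not recovered, and 99.98% of values above 0 came out whole within 0.02 of a read. With 2 libraries per group, depth and replicate number limit the precision.

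A transcript was tested when both libraries of at least 1 of the 6 groups had an RPKM above 5 and lay within 2-fold of each other. A transcript that passed through groups of 1 experiment only entered as high there. The direction of its shift was thus partly set by this filter. limma 3.58.1 in R 4.3.3, with moderated variances that follow the level of the transcripts, was fitted on log2(RPKM + 0.1) over the 12 libraries with 1 coefficient per group, two-sided, with Benjamini-Hochberg adjustment over the 11529 transcripts. The files held RPKM and not counts, so no count test was used. Libraries were not paired by replicate number in this fit, as no same-numbered pair of libraries had deviations that correlated above 0.1. In experiment 3 each replicate number did have its own lane. Other pseudocounts, filters, thresholds, scalings and blocks, and leaving out each library, were tried. Python 3.11.15 was used for tables and figures.

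Names were found for 1812 transcripts (8.40%), 441 from a RefSeq gene table only, 1327 from the study's first supplementary annotation only and 44 from both. The study chose that annotation on differences between scribKD and control cells in these libraries, so named transcripts and gene lists are no random sample. The second annotation gave another name for 27 of 251 transcripts that both name, and was not used. The populations, lists and rules were chosen with earlier results of these data known. Named were the 8 widest shared rises and falls by their smallest shift, the 3 largest rises and falls of each single population, up to 4 called members per list and the largest mean rise and fall. Other list members given with values, such as HSP90B1, Fos, Dusp1, Rrm2, Timp3, Thbs1, Cldn1, Pax8, Cdkn1a and Nqo1, were chosen after their values were seen. Some transcripts are not reported here.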

Additional observations from a re-analysis of the deposited data

Results flagged for a closer look

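The shift between the experiments differed between populations by the F test in 72 of the 88 transcripts named by rule, and in 46 of them the widest difference between a pair of populations was over 1 on the log2 scale. Over all transcripts tested the share by the F test was 49%. The rule takes transcripts whose shift differed between populations and those with the largest shifts. A high share among the 88 was thus partly set by the choice. The 10 with a difference over 2 and more than 3 reads in a library of every group are given here.

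In 3 genes the scribRES shift was below that of control cells. The difference, scribRES minus control, was -3.13 (standard error 0.14, adjusted p = 1.7e-07) for Sdf2l1, -2.78 (standard error 0.19, adjusted p = 3e-06) for Atf5 and -2.48 (standard error 0.50, adjusted p = 0.0029) for Pck1. Nr4a1 rose less in scribRES than in scribKD cells, by -2.76 (standard error 0.30, adjusted p = 9.1e-05). Stard10 rose less in scribKD than in control cells, by -2.01 (standard error 0.42, adjusted p = 0.0096).

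In the other 5 genes the scribRES shift was the higher one. For Cldn2 scribRES exceeded control cells by 3.13 (standard error 0.14, adjusted p = 2.4e-07). The difference between scribRES and scribKD cells was 2.94 (standard error 0.37, adjusted p = 0.00024) for Cldn16, 2.88 (standard error 0.49, adjusted p = 0.0014) for Cdh16 and 2.57 (standard error 0.23, adjusted p = 3e-05) for Podn. In the scribRES libraries of experiment 2 Cldn16 had 13 and 4 reads and Cdh16 7 and 1. Cdh16 passed the filter only through control cells of experiment 3. Csf2, whose fall was the smaller in scribRES cells, had a difference of 2.58 (standard error 0.17, adjusted p = 5e-06).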

How the results depend on the processing

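The counts called in control, scribKD and scribRES cells, in all 3 populations and by the F test stayed within 1.5 times of those reported under the other pseudocounts, RPKM minimums, filters, scaling and trend settings. Without the fold change threshold they rose to 7550, 6418, 5621 and 2604 for control, scribKD, scribRES and all 3 populations, and the control-only count fell to 249. Leaving out each library in turn gave 3684 to 4090 calls in control, 2518 to 2816 in scribKD and 1736 to 2075 in scribRES cells, 689 to 814 in all 3, 289 to 716 in control only, 84 to 167 in scribKD only, 213 to 317 in scribRES only and 4477 to 6067 by the F test. A group of 1 library was assumed to vary like the other groups. With the replicate number as a block the counts were 3800, 2699, 1925 and 767, then 501, 130 and 265 for the single populations and 5421 by the F test, and with a random block 3791, 2690, 1927, 767, 496, 130, 253 and 5396, so the block changed no count by over 1.5 times. Same-numbered libraries did not deviate together (correlations from -0.19 to 0.08).

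Among the named transcripts no direction reversed. IGF2 in scribRES cells was no longer called with a pseudocount of 1, CCL2 in control cells with one of 0.01, and Myof in scribKD cells without replicate 1 of scribKD cells in experiment 3, and Scrib was called in control and scribKD cells without the fold threshold. The cause of these changes was not tested. Median-ratio scaling moved the median shift by at most 0.04 on the log2 scale. Counting intervals and the floor of 3 reads cover counting error only.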

Other observations

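Of the transcripts called in 2 populations in the same direction and not in the other, 1217 were shared by control and scribKD cells, 339 by control and scribRES cells and 122 by scribKD and scribRES cells. Transcripts with the same sign in all 3 populations, whatever their size, numbered 6738, or 58.4% of those tested.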
